A study of Mus musculus with 102 samples.

Results

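Microglia of the lumbar spinal cord were compared between cisplatin-treated and untreated ABC-imKO mice, in which microglia lack the cholesterol exporters ABCA1 and ABCG1 once Cre is induced. The members are the 6 samples so labelled, of 17 in the series. They are 3 naive samples (ABC-imKO 1, 2 and 3; no treatment) and 3 samples (4, 5 and 6) from mice injected intraperitoneally with cisplatin on days 1 and 3 and intrathecally with saline on day 7. Both groups carry the genotype Abca1 fl/fl Abcg1 fl/fl Cx3cr1-CreERT2, so the genotype is common to them and is not what differs here. The extent of the deletion in each group was not measured. The naive mice had no injection, so the effects of cisplatin and of the intrathecal injection cannot be told apart. The recombinase is a tamoxifen-dependent CreERT2 driven by the Cx3cr1 promoter, which is active in microglia and also in other myeloid cells. The labels used here state neither age, sex nor a tamoxifen schedule, and leave unsaid how many mice went into each numbered sample. The p-values therefore measure the spread between these samples, which may be partly technical. The other 11 samples are ABC-imKO mice given cisplatin and AIBP (3), and wild type (WT) mice that were naive (3), given cisplatin and saline (3) or given cisplatin and AIBP (2). AIBP is the apolipoprotein A-I binding protein. The series asks about microglia in chemotherapy-induced peripheral neuropathy.

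Microglia are the resident macrophages of the brain and spinal cord. In the undisturbed cord they carry a characteristic set of transcripts, maintained by transforming growth factor beta and CSF1 receptor signalling, which includes purinergic receptors that sense nucleotides released by neighbouring cells. When microglia respond to injury, that set commonly falls while genes of phagocytosis, lipid handling and protein synthesis rise. ABCA1 and ABCG1 move cholesterol out of the cell to apolipoproteins, and cisplatin, a platinum drug that forms DNA adducts, causes painful neuropathy in patients and in mice.

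Counts of the 6 runs of each sample were added (3 technical replicates on 2 lanes). The naive samples held 54.7 to 70.3 M counts (M for mega) and the cisplatin saline samples 71.9 to 74.5 M, within the 45.1 to 76.6 M of all 17 samples. Between 18791 and 20951 genes were detected per sample. Mitochondrial genes took 1.53 to 2.14% of counts in the naive samples and 2.26 to 3.04% after cisplatin and saline. A stress score, the mean log2 CPM (CPM are read counts scaled by library size) of the immediate early and heat shock gene lists, stood at 5.72, 6.64 and 6.88 in naive 1, 2 and 3 and at 5.2, 4.96 and 6.25 in cisplatin saline 4, 5 and 6. The score was lower on the whole after cisplatin, with naive 1 below cisplatin saline 6. CPM are scaled by TMM library sizes and are not divided by gene length, so levels are compared between samples and never between genes.

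The targeted genes came first. Abca1 (chromosome 4, 53030787 to 53159895, GRCm38) stood at 105, 78.6 and 66.1 CPM in the naive samples and at 98.5, 56.6 and 59.7 CPM after cisplatin and saline (log2 fold change -0.22 ± 0.28, adjusted p = 0.74). Abcg1 (chromosome 17, 31057675 to 31117988) stood at 41.6, 66.4 and 56 and 68.4, 50.9 and 54.1 CPM (log2 fold change 0.08 ± 0.32, adjusted p = 0.945). The groups overlapped for both genes. Reads from undeleted exons are part of a gene's count, and the deletion itself was not measured. Cx3cr1 (chromosome 9, 119901616 to 120069879), the fractalkine receptor whose locus drives the Cre, stood at 3396, 4290 and 4870 CPM in the naive samples and fell to 1717, 2217 and 2770 CPM, with every treated sample below every naive one (log2 fold change -0.91 ± 0.18, adjusted p = 0.0119). Its call was lost without cisplatin saline 4 or 5, where adjusted p reached 0.0553. Throughout, log2 fold changes are cisplatin saline over naive, ± SE, from edgeR's quasi-likelihood test, and p-values carry the Benjamini-Hochberg adjustment over the 20461 genes tested (threshold 0.05).

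After cisplatin and saline, ABC-imKO microglia had lower transcripts of their resting identity, among them Cst3, Tmem119, P2ry12, Gpr34 and Hexa, and higher transcripts of ribosomal proteins, nuclear-encoded respiratory subunits and the proteasome. A separate set of genes that were low in naive cells, such as Lrg1, Xdh, Msr1 and Cd300lf, rose steeply. Hspa1a, Hspa1b and 3 other heat shock genes fell. Of 20461 genes tested, 903 passed (4.41%), 496 higher (2.42%) and 407 lower (1.99%), and 676 of the 903 differed by at least 2-fold. The median log2 fold change was -0.04 over all genes tested, 1.22 over the genes called higher and -1.34 over those called lower. The 3 treated samples lay above the 3 naive samples for 2465 genes (12%) and below them for 2351 (11.5%), and 900 of the 903 called genes had no overlap between groups. Protein-coding genes made up 468 of the higher and 381 of the lower calls. The count fell to 366 without cisplatin saline 5 and to 394 without naive 2, and lay between 512 and 788 without any of the other 4 samples. It was 174 with the stress score as a covariate, where each gene list below with 3 or more calls in a direction had fewer. No called gene changed direction in any of these fits.

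**Figure D1:**
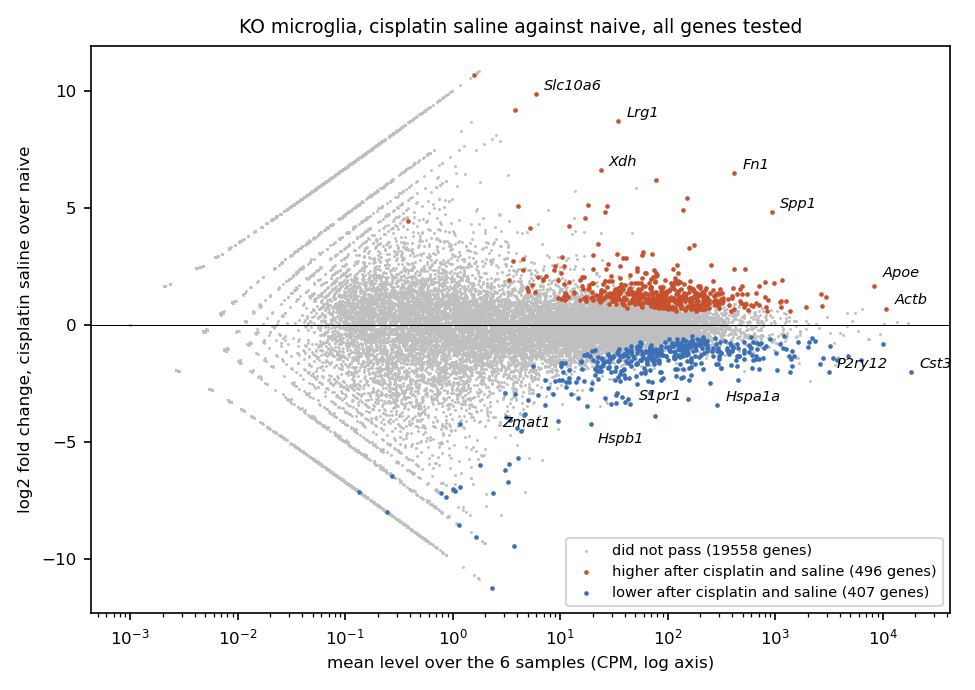
Mean CPM over the 6 samples (horizontal, log axis) against log2 fold change of cisplatin saline over naive (vertical) for each of 20461 genes, with genes called higher and lower in colour. Most of the 496 rises and 407 falls lie among the 8572 genes with a mean of 10 CPM or more, which hold 474 rises and 370 falls. The median of all genes lies at -0.04.

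Surface receptors of resting microglia fell as a group. Of 18 tested, 11 fell and 0 rose, the median log2 fold change was -0.98, and 16 had every treated sample below every naive one. P2ry12, the ADP receptor that steers microglial processes toward released nucleotides, stood at 4322, 4942 and 5816 CPM in naive 1, 2 and 3 and at 1305, 1122 and 1306 CPM in cisplatin saline 4, 5 and 6 (log2 fold change -2.01 ± 0.33, adjusted p = 0.00352). Its lowest naive level was above all 3 treated levels by a wide margin, and the treated samples lay close together. Gpr34, a receptor for lysophosphatidylserine, stood at 1940, 2159 and 2522 CPM and fell to 429.9, 563 and 628 CPM (log2 fold change -2.03 ± 0.30, adjusted p = 0.0018). For the fructose transporter gene Slc2a5 the naive samples gave 553, 830.4 and 885 CPM and the treated ones 126, 118 and 206 CPM (log2 fold change -2.33 ± 0.36, adjusted p = 0.00226). Both genes were lowest in cisplatin saline 4 or 5 and did not overlap between groups. Adgrg1, an adhesion receptor, went from 714, 979.6 and 1178 to 219, 200.1 and 382 CPM (log2 fold change -1.84 ± 0.29, adjusted p = 0.00278). Selplg, which encodes a selectin ligand, went from 8056, 9283 and 10750 to 3739, 3285 and 2861 CPM (log2 fold change -1.51 ± 0.25, adjusted p = 0.00347). Tmem119, a membrane protein used as a microglial marker, went from 4694, 5500 and 4918 to 1798, 1620 and 2240 CPM (log2 fold change -1.42 ± 0.17, adjusted p = 0.000641). All 3 were separated between the groups, and cisplatin saline 6 was the highest treated sample for Adgrg1 and Tmem119 but the lowest for Selplg.

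Smaller falls were seen in the second ADP receptor gene P2ry13, which stood at 1443, 1776 and 1819 CPM in naive samples and at a nearly constant 833, 839 and 829 CPM after treatment (log2 fold change -1.01 ± 0.16, adjusted p = 0.00235), and in the Fc receptor-like gene Fcrls, at 2351, 3020 and 2608 against 1333, 1332 and 1485 CPM (log2 fold change -0.94 ± 0.17, adjusted p = 0.00602). Siglech, a sialic acid-binding lectin, was also called lower (log2 fold change -1.44 ± 0.31, adjusted p = 0.0158), a call lost without naive 2 or cisplatin saline 5, where adjusted p reached 0.0828. Csf1r, the receptor on which microglial survival depends, stood at 7838, 9440 and 9095 CPM in naive and 6925, 4585 and 5941 CPM in treated samples and did not pass (log2 fold change -0.60 ± 0.17, adjusted p = 0.0711), although its groups did not overlap. Together the 18 receptors took 4.62 to 4.91% of all counts in the naive samples and 2.23 to 2.6% in the treated ones. The number that fell was 8 to 11 when any 1 sample was left out and 4 with the stress score as a covariate. In bulk samples, fewer cells of a type and less RNA per cell cannot be told apart.

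Secreted proteins and enzymes of resting microglia fell too, 9 of 14 with 0 higher and a median of -1.05. Cst3, which encodes the protease inhibitor cystatin C (chromosome 2, 148871722 to 148875692), stood at 27370, 29070 and 31780 CPM in the naive samples and 8808, 6474 and 6810 CPM in the treated ones (log2 fold change -2.0 ± 0.21, adjusted p = 0.000316). Olfml3, a secreted olfactomedin-like protein, went from 3531, 4238 and 4144 to 1051, 1075 and 1657 CPM (log2 fold change -1.66 ± 0.20, adjusted p = 0.000549). Sparc, a matricellular protein, went from 4224, 3972 and 4052 to 1944, 1299 and 1380 CPM (log2 fold change -1.41 ± 0.24, adjusted p = 0.00436). The naive samples were tight for these genes, and no treated sample reached them. Bin1, an adaptor of membrane curvature and endocytosis, stood at 729, 1000 and 1032 against 204, 286 and 488 CPM (log2 fold change -1.5 ± 0.26, adjusted p = 0.00467). Serpine2, which encodes protease nexin 1, stood at 762, 966 and 1180 against 411, 295 and 361 CPM (log2 fold change -1.45 ± 0.27, adjusted p = 0.00696). Cisplatin saline 6 kept the highest Bin1 level among the treated samples and still lay below naive 1. Crybb1, a beta-crystallin, went from 159, 286 and 351 to 39.9, 32.6 and 82.8 CPM (log2 fold change -2.36 ± 0.49, adjusted p = 0.0125), and this call was lost without cisplatin saline 4 or 5, where adjusted p reached 0.0688. These 14 genes took 5.53 to 5.81% of counts in naive and 2.21 to 2.38% in treated samples. The number that fell was 5 without cisplatin saline 4 and also 5 without cisplatin saline 5, and 2 with the stress score as a covariate.

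**Figure D2:**
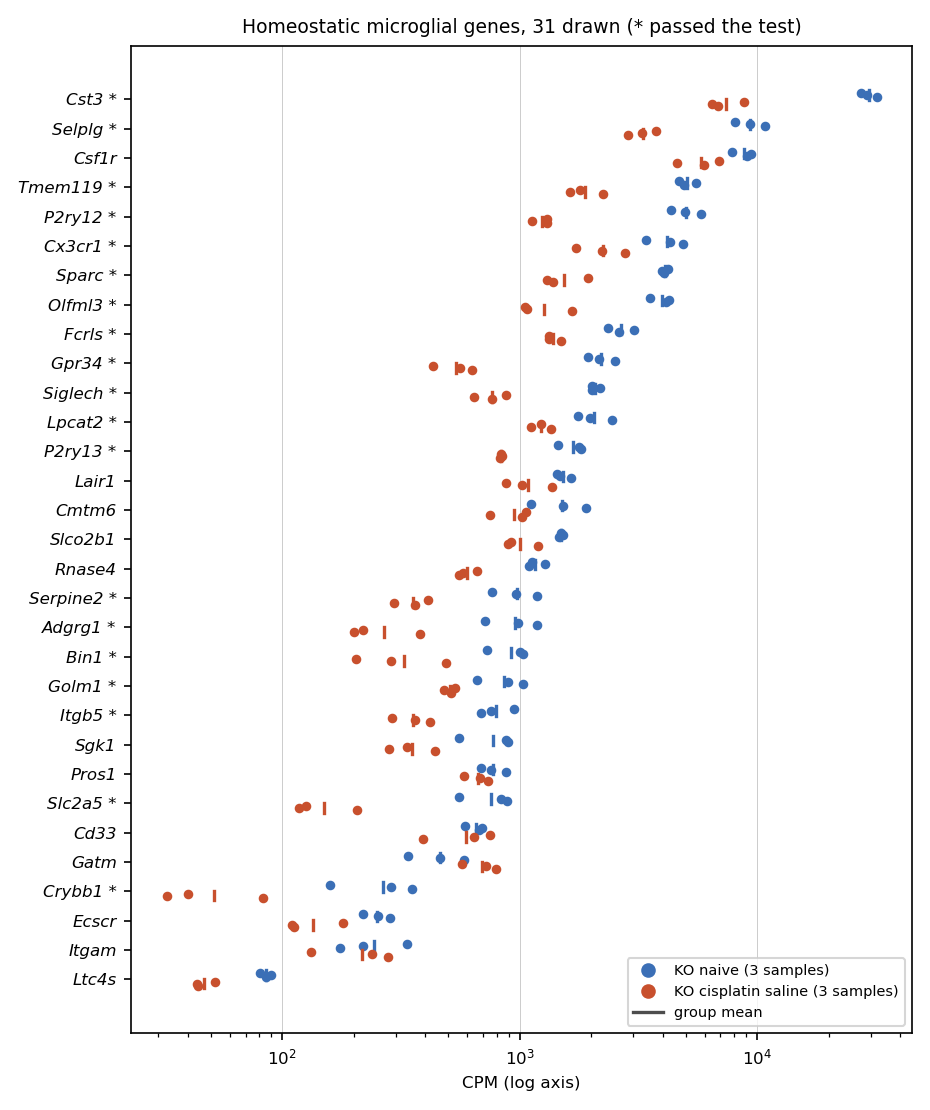
CPM (log axis) of 31 of the 32 homeostatic genes tested, 1 point per sample, for naive 1 to 3 and cisplatin saline 4 to 6; an asterisk marks the genes that passed. The 19 genes marked lie lower in the treated samples, and no gene is marked as higher.

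Of 20 transcription factors that hold microglial identity, 1 fell and the median was -0.52. The share called, 5%, was close to the 4.41% of all genes. In 9 of the 20 every treated sample lay below every naive one, against 11.5% of all genes. Irf8, a factor needed for microglial development, stood at 902, 900 and 928 CPM in the naive samples and 624, 486 and 432 CPM after cisplatin (log2 fold change -0.82 ± 0.16, adjusted p = 0.0107); the call was lost without cisplatin saline 5, where adjusted p was 0.0577. Sall1, a factor expressed in microglia but not in other macrophages, stood at 432, 309 and 284 against 99.8, 172 and 205 CPM and did not pass (log2 fold change -1.10 ± 0.31, adjusted p = 0.0627). Mef2c (log2 fold change -0.56 ± 0.17, adjusted p = 0.0726) and Cebpa (log2 fold change -1.16 ± 0.34, adjusted p = 0.076) did not pass either. Of 19 genes of the transforming growth factor beta pathway, 2 were called lower (10.5%, against 4.41% of all genes called) and the median was -0.59. The first was Nrros, which presents latent growth factor at the microglial surface, at 426, 590 and 603 CPM in naive and 256, 289 and 291 CPM in treated samples (log2 fold change -0.95 ± 0.21, adjusted p = 0.0174; lost without naive 2 or 3 or cisplatin saline 4 or 5, where adjusted p reached 0.0781). The other, the receptor gene Acvr1 (log2 fold change -1.66 ± 0.45, adjusted p = 0.0494), lost its call when any 1 of the 6 samples was left out (adjusted p up to 0.178). The receptor genes Tgfbr1 (log2 fold change -1.16 ± 0.35, adjusted p = 0.0801) and Tgfbr2 (log2 fold change -0.66 ± 0.22, adjusted p = 0.111) did not pass.

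P2ry12 and P2ry13, which fell, were counted with the homeostatic receptors. Among 16 other purinergic receptor and nucleotide-handling genes, Entpd1 was the only call (6.25%, against 4.41% of all genes). It encodes CD39, the surface enzyme that degrades extracellular ATP and ADP, and stood at 934, 1157 and 1264 CPM in naive and 221, 301 and 381 CPM in treated samples (log2 fold change -1.89 ± 0.25, adjusted p = 0.00112), with a wide gap between groups. The ATP-gated channel gene P2rx7 did not pass (log2 fold change -0.37 ± 0.17, adjusted p = 0.278). In a list of 20 pain-associated microglial mediators, the 3 that passed were Cx3cr1, P2ry12 and Irf8, all lower, and the median was -0.58. Leaving out cisplatin saline 5 left 1 of these calls.

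Receptors of G protein-coupled and lipid signalling contributed single large falls. S1pr1, the sphingosine 1-phosphate receptor, stood at 103, 77.5 and 65.2 CPM in naive 1, 2 and 3 and at 13.2, 7.24 and 3.3 CPM in cisplatin saline 4, 5 and 6 (log2 fold change -3.37 ± 0.62, adjusted p = 0.00689). Rgs10, a brake on G protein signalling that microglia express strongly, went from 564, 648 and 883 to 333, 299 and 355 CPM (log2 fold change -1.08 ± 0.21, adjusted p = 0.00934; lost without cisplatin saline 5, where adjusted p was 0.054). Neither gene overlapped between groups. Of 22 lipid mediator receptors 2 were called (9.09%, against 4.41% of all genes), S1pr1 and Lpar5, both lower. In this list 1 was called without naive 1, 2 or 3 or cisplatin saline 4 or 6. Of the 24 genes of G protein signalling, 4 were called lower and 2 higher; 0 were called lower without cisplatin saline 5 and 2 without naive 1, naive 2, cisplatin saline 4 or cisplatin saline 6, and the higher calls, Gng12 and Grk6, were both lost without any sample but naive 3. Of 31 ion channel genes, 4 were called lower and 1 higher. Kcnk12, a potassium channel subunit, stood at 30.4, 30.7 and 36.1 CPM and fell to 2.8, 1.67 and 4.38 CPM (log2 fold change -3.46 ± 0.66, adjusted p = 0.00835; lost without cisplatin saline 5, where adjusted p was 0.0516). Tmem173, which encodes the nucleotide-sensing adaptor STING, stood at 786, 880 and 695 and fell to 315, 456 and 404 CPM (log2 fold change -1.01 ± 0.15, adjusted p = 0.00226). Kcnd1, a voltage-gated potassium channel, stood at 82.4, 87.3 and 80.3 and fell to 25.3, 32.5 and 31.6 CPM (log2 fold change -1.48 ± 0.30, adjusted p = 0.011; lost without cisplatin saline 4, where adjusted p was 0.0536). Each of these 3 was separated between groups. Trpv4, a cation channel opened by warmth and cell swelling, moved the other way, from 2.05, 5.99 and 11.8 to 43.2, 26.9 and 32 CPM (log2 fold change 2.36 ± 0.56, adjusted p = 0.0262; lost without naive 1 or 2 or cisplatin saline 4 or 5, where adjusted p reached 0.11). The fall of Kcnj2, an inward rectifier, was called in the full comparison (log2 fold change -2.64 ± 0.69, adjusted p = 0.0441) but was -1.41 without naive 1 and was lost without naive 1 or 2 or cisplatin saline 4, 5 or 6, where adjusted p reached 0.264. Without cisplatin saline 4 or 5, 2 channel genes were called lower. Of 25 protein kinase C and phosphoinositide genes 2 fell (8%, against 4.41% of all genes called), and 4 fell without naive 3. The 2 were Plcl2, a phospholipase C-like protein (116, 98.6 and 112 against 19.6, 31.2 and 35.3 CPM, log2 fold change -1.92 ± 0.33, adjusted p = 0.00436), and the diacylglycerol kinase gene Dgkd (log2 fold change -1.16 ± 0.22, adjusted p = 0.00797).

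Several immune receptors rose from low levels. Msr1, the class A scavenger receptor that takes up modified lipoproteins, stood at 1.08, 14.5 and 11.2 CPM in naive 1, 2 and 3 and at 302, 339 and 171 CPM in cisplatin saline 4, 5 and 6 (log2 fold change 4.92 ± 0.90, adjusted p = 0.00649). Cd300lf, an inhibitory receptor for phospholipids, stood at 2.65, 10.3 and 8.07 CPM and rose to 492, 288 and 106 CPM (log2 fold change 5.39 ± 0.92, adjusted p = 0.00432). The lowest treated sample, number 6 for both genes, was still about an order of magnitude above the highest naive one. Pilra, an inhibitory paired receptor, rose from 34, 39.1 and 31.4 to 194, 244 and 184 CPM (log2 fold change 2.57 ± 0.38, adjusted p = 0.00177). Fcgr4, an activating Fc receptor, rose from 44.5, 53.5 and 34.8 to 319, 143 and 146 CPM (log2 fold change 2.19 ± 0.37, adjusted p = 0.00425). Cisplatin saline 4 was highest for Fcgr4 and Cd300lf, and cisplatin saline 5 for Pilra and Msr1. Against these rises, Cd300a, another inhibitory receptor of the CD300 family, fell from 197, 221 and 238 to 54, 68.3 and 57 CPM (log2 fold change -1.87 ± 0.24, adjusted p = 0.00101). Sirpa, the inhibitory receptor for CD47, fell from 1798, 1848 and 2087 to 744, 680.5 and 843 CPM (log2 fold change -1.34 ± 0.19, adjusted p = 0.00142). Of 8 Fc receptors, 1 rose (Fcgr4) and 1 fell (Fcrls, a microglial Fc receptor-like gene). Of 23 inhibitory and paired receptors, 4 rose and 2 fell. The other rises, Pilrb1 and Cd244a, lost their calls when any 1 of the 6 samples was left out (adjusted p up to 0.151 and 0.174), so 2 rises and both falls remained in each such fit. Of 21 engulfment genes, 1 rose (Msr1) and 3 fell, the lysosomal receptor Scarb2 (log2 fold change -0.98 ± 0.19, adjusted p = 0.00837) and the Rac activators Elmo1 (log2 fold change -0.99 ± 0.20, adjusted p = 0.0116; lost without cisplatin saline 5, where adjusted p was 0.0662) and Dock2 (log2 fold change -0.69 ± 0.17, adjusted p = 0.0339; lost without naive 1 or 2 or cisplatin saline 4 or 5, where adjusted p reached 0.151). The number of these falls was 1 without cisplatin saline 5 and 5 without naive 3.

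Cytokine receptor genes moved both ways, with 5 of 34 higher, 5 lower and a median of -0.11. Il15ra, which presents interleukin 15 to neighbouring cells, stood at 32.6, 44.7 and 29.9 CPM in naive and 198, 234 and 131 CPM in treated samples (log2 fold change 2.39 ± 0.25, adjusted p = 0.000316). Lifr, the receptor for leukemia inhibitory factor, rose from 90.6, 114 and 138 to 316, 236 and 267 CPM (log2 fold change 1.26 ± 0.20, adjusted p = 0.00332). Csf2rb, the shared chain of the interleukin 3, interleukin 5 and GM-CSF receptors, rose from 156, 138 and 80.3 to 393, 311 and 235 CPM (log2 fold change 1.33 ± 0.27, adjusted p = 0.0107). No treated sample overlapped a naive one for these receptors. Il1r2, the decoy receptor for interleukin 1, stood at 0.0344, 0.267 and 6.04 CPM in naive 1, 2 and 3 and at 243, 205 and 8.31 CPM in cisplatin saline 4, 5 and 6 (log2 fold change 6.17 ± 1.6, adjusted p = 0.0412). The groups only just separated, at naive 3 and cisplatin saline 6, the log2 fold change was 9.95 without naive 3, and the call was lost without naive 1 or 2 or cisplatin saline 4 or 5, where adjusted p reached 0.147. Il18rap, a chain of the interleukin 18 receptor, went from 1.65, 1.69 and 0.755 to 44.4, 34.5 and 18.7 CPM (log2 fold change 4.57 ± 0.98, adjusted p = 0.0159; lost without naive 1, 2 or 3, where adjusted p reached 0.0678). On the falling side, Csf3r, the G-CSF receptor, went from 702, 794 and 776 to 273, 249 and 296 CPM (log2 fold change -1.47 ± 0.19, adjusted p = 0.00106). Il21r, the interleukin 21 receptor, went from 249, 262 and 159.5 to 90.2, 60.2 and 82.3 CPM (log2 fold change -1.53 ± 0.28, adjusted p = 0.00658). The shared chain gene Il6st, the interleukin 10 receptor gene Il10ra and the feedback inhibitor Socs1 were the remaining falls. The number of rises was 3 without naive 1 or naive 2. The number of falls was 3 without naive 1, naive 3 or cisplatin saline 6 and 2 without naive 2 or cisplatin saline 5.

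Several of the largest rises were in secreted and matrix genes. Lrg1, a leucine-rich glycoprotein that modulates transforming growth factor beta signalling (chromosome 17, 56119678 to 56122001), stood at 0.0172, 0.1 and 0.37 CPM in naive 1, 2 and 3 and at 106, 64.8 and 36.7 CPM in cisplatin saline 4, 5 and 6 (log2 fold change 8.71 ± 1.06, adjusted p = 0.000596). Fibronectin (Fn1), an adhesive glycoprotein of the matrix, rose from 1.74, 10.9 and 14.8 to 638, 1088 and 723 CPM (log2 fold change 6.48 ± 1.43, adjusted p = 0.0184; lost without naive 1 or 2 or cisplatin saline 5, where adjusted p reached 0.0838). Spp1, which encodes osteopontin, rose from 76.5, 38.7 and 77.4 to 1471, 2806 and 1073 CPM (log2 fold change 4.80 ± 1.13, adjusted p = 0.0261; lost without naive 1, 2 or 3 or cisplatin saline 5, where adjusted p reached 0.121). All 3 treated samples were far above the naive ones for these genes, with cisplatin saline 5 the highest for Fn1 and Spp1 and cisplatin saline 4 for Lrg1. Ecm1, an extracellular matrix protein, went from 0.43, 0.234 and 2.31 to 26.8, 53.5 and 24.7 CPM (log2 fold change 5.13 ± 1.20, adjusted p = 0.0253; lost without naive 1 or 2 or cisplatin saline 5, where adjusted p reached 0.108). Adamtsl4, a fibrillin-binding protein, went from 0.138, 1.44 and 3.07 to 71.8, 73.7 and 11.8 CPM (log2 fold change 5.08 ± 1.02, adjusted p = 0.0107; lost without naive 2, where adjusted p was 0.0592). Cisplatin saline 6 was the lowest treated sample for both. The growth factor gene Pdgfb fell (log2 fold change -1.69 ± 0.41, adjusted p = 0.031; lost without naive 1 or 2 or cisplatin saline 4, 5 or 6, where adjusted p reached 0.139). Of 33 genes in the list, 5 rose and 1 fell, and the rises were 2 without naive 1, 1 without naive 2 and 2 without cisplatin saline 5. Fn1 is also a marker of monocytes, whose summed level rose alongside, as given with the markers of other cells.

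Genes of the disease-associated microglial state split in direction. Of 23, 4 rose and 4 fell, and the median was -0.03, close to that of all genes, and above 0 in 11 of 20 other fits. Cd63, a tetraspanin of late endosomes, stood at 442, 399 and 473 CPM in naive and 1957, 1529 and 1048 CPM in treated samples (log2 fold change 1.79 ± 0.22, adjusted p = 0.000681). Apoe, the main apolipoprotein of lipid transport in the nervous system (chromosome 7, 19696109 to 19699188), stood at 4692, 3421 and 3799 CPM and rose to 21270, 8742 and 8110 CPM (log2 fold change 1.68 ± 0.30, adjusted p = 0.00602). Cisplatin saline 4 was the highest sample for both, and without it the log2 fold change of Apoe was 1.11 and still passed. The cathepsin gene Ctsl (log2 fold change 0.77 ± 0.18, adjusted p = 0.023) and Spp1 also rose, and the call of Ctsl was lost without naive 1, 2 or 3 or cisplatin saline 4 or 5, where adjusted p reached 0.0901. Trem2, the lipid-sensing receptor that the disease-associated state depends on, fell from 1827, 1971 and 2135 to 1197, 781 and 743 CPM (log2 fold change -1.12 ± 0.21, adjusted p = 0.00705). Ctsd, Cd9 and Ank fell as well. The number of rises was 2 without any of naive 1, naive 2, naive 3 or cisplatin saline 5, and the number of falls was 2 without naive 1, naive 2 or cisplatin saline 6.

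Cholesterol handling is where the genotype acts. Of 32 lipoprotein, liver X receptor (LXR) and cholesterol transport genes 3 rose and 3 fell (18.8% called, against 4.41% of all genes), with a median of -0.24. Calls were more frequent at higher levels, with 844 of the 8572 genes of 10 CPM or more called. Besides Apoe, the rises were Abcg2, an efflux transporter, at 58.6, 57.6 and 44.4 against 101, 109.9 and 122 CPM (log2 fold change 1.05 ± 0.22, adjusted p = 0.015; lost without naive 2 or 3 or cisplatin saline 5, where adjusted p reached 0.0568), and the cholesteryl ester hydrolase gene Nceh1 (log2 fold change 1.14 ± 0.30, adjusted p = 0.0446; lost without naive 1, 2 or 3 or cisplatin saline 4 or 5, where adjusted p reached 0.16). The falls were Stard3, which moves cholesterol out of late endosomes, at 254, 349.7 and 250 against 166, 169.6 and 154 CPM (log2 fold change -0.80 ± 0.17, adjusted p = 0.013; lost without naive 2 or cisplatin saline 5, where adjusted p reached 0.0753), Mylip, the LXR-induced ligase that degrades the LDL receptor (log2 fold change -0.93 ± 0.20, adjusted p = 0.0159; lost without naive 1 or cisplatin saline 4 or 5, where adjusted p reached 0.0761), and the transporter gene Abca9 (log2 fold change -1.31 ± 0.31, adjusted p = 0.0258; lost without naive 1 or 2 or cisplatin saline 4, 5 or 6, where adjusted p reached 0.101). Only the Apoe call was therefore kept in all 6 fits that left out 1 sample. Of 26 sterol synthesis genes 0 rose, and the list's median was 0.25. Of 34 fatty acid and lipid droplet genes 0 were called by edgeR (5 at an unadjusted p under 0.05, 5 called by DESeq2 and 0 by limma-voom).

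Inflammatory genes showed isolated calls, with 1 of 23 cytokines and enzymes higher and 2 lower, and 2 of 22 chemokines and their receptors higher and 1 lower. Alox5, the 5-lipoxygenase that begins leukotriene synthesis, stood at 98.6, 116 and 129.8 CPM in naive and 487, 396 and 365 CPM in treated samples (log2 fold change 1.86 ± 0.21, adjusted p = 0.000515), with no overlap. Ccl12, a ligand of CCR2, went from 359, 284 and 420 to 1000, 1142 and 1648 CPM (log2 fold change 1.83 ± 0.45, adjusted p = 0.0316; lost without naive 1, 2 or 3 or cisplatin saline 5 or 6, where adjusted p reached 0.138). Ccr1, a chemokine receptor, went from 17.4, 23.2 and 32.8 to 95.1, 214 and 65.1 CPM (log2 fold change 2.35 ± 0.51, adjusted p = 0.0169; lost without naive 1 or 2 or cisplatin saline 5, where adjusted p reached 0.0908). Ccl9 fell from 158, 114 and 91.7 to 44.3, 47.3 and 33.1 CPM (log2 fold change -1.54 ± 0.33, adjusted p = 0.0156; lost without naive 1 or cisplatin saline 4, 5 or 6, where adjusted p reached 0.0702). The NF-kappa-B subunit genes Nfkb1 (log2 fold change -1.38 ± 0.31, adjusted p = 0.0193; lost without naive 1 or 2 or cisplatin saline 4, where adjusted p reached 0.0855) and Relb (log2 fold change -1.29 ± 0.34, adjusted p = 0.0482; lost without naive 2 or 3 or cisplatin saline 4, 5 or 6, where adjusted p reached 0.209, and -0.75 without naive 3) were lower. Leaving out 1 sample gave 0 or 1 lower call among the cytokines and enzymes, and 0 to 2 higher calls among the chemokines. Among 30 interferon-stimulated genes 0 were called by edgeR (9 at an unadjusted p under 0.05, 7 called by DESeq2 and 5 by limma-voom), while the median was -0.99 and 14 had every treated sample below every naive one. Of 22 antigen presentation genes 4 were called lower, H2-K1, H2-T23, H2-D1 and the immunoproteasome subunit Psmb9, with a median of -0.49. H2-K1, a class I heavy chain, stood at 1076, 1528 and 1580 against 880.2, 819 and 710.3 CPM (log2 fold change -0.80 ± 0.17, adjusted p = 0.0143; lost without naive 2 or cisplatin saline 5 or 6, where adjusted p reached 0.0708). Antigen presentation genes called lower numbered 0 without naive 2, 1 without cisplatin saline 5 and 2 without naive 3, cisplatin saline 4 or cisplatin saline 6. Of 16 complement genes 0 were called by edgeR (6 at an unadjusted p under 0.05, 5 called by DESeq2, 1 by limma-voom). Of 25 Toll-like receptor and adaptor genes 2 were called (8%, against 4.41% of all genes), both lower. The 2 were Cd180 (log2 fold change -0.89 ± 0.17, adjusted p = 0.00834, lost without cisplatin saline 5, where adjusted p was 0.0515) and Unc93b1 (log2 fold change -0.73 ± 0.16, adjusted p = 0.0207, lost without naive 2 or 3 or cisplatin saline 5 or 6, where adjusted p reached 0.108).

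Of 27 heat shock genes 5 fell, among them Hspa1a and Hspa1b. The inducible chaperone genes Hspa1a and Hspa1b lie side by side on chromosome 17 and are nearly identical in sequence, so the division of reads between them is uncertain. The 250 bases before the RefSeq starts (GRCm38.p6) are printed for the 3 members with the largest falls that have a sequence in the reference table. Heat shock factors bind sites that can contain the element searched for. Capitals mark GAANNTTC, which reads the same on both strands, so 1 match covers both.
Hspa1a (chr17:34972157-34972406, minus strand): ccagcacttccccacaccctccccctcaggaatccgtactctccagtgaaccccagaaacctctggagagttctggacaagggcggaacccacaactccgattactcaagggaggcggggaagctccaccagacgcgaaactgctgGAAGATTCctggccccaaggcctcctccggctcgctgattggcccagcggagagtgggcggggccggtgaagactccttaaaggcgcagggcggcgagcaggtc
Hspa1b (chr17:34959239-34959488, minus strand): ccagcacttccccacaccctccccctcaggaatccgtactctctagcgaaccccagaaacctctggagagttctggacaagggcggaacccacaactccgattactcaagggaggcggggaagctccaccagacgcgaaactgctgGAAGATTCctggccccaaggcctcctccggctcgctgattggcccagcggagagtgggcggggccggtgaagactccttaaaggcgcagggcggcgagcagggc
Hspb1 (chr5:135887669-135887918, plus strand): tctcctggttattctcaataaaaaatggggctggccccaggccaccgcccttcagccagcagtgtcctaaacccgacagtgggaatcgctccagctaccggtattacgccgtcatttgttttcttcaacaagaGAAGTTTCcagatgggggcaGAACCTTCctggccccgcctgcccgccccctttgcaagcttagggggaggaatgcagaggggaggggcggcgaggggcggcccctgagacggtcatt
The motif begins 104 bases before the start in both Hspa1 genes, whose windows share 247 of 250 bases (98.8%), and 117 and 97 bases before it in Hspb1. Of the 27025 genes in the RefSeq table, 2088 (7.73%) held the motif in this window, and of the 21 heat shock genes with a sequence 9 did (42.9%). A match is a description of these letters only.

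Hspa1b (chromosome 17, 34956436 to 34959238) stood at 136, 149.6 and 146 CPM in naive 1, 2 and 3 and at 4.22, 8.32 and 16.6 CPM in cisplatin saline 4, 5 and 6 (log2 fold change -3.89 ± 0.62, adjusted p = 0.00291). Hspa1a (chromosome 17, 34969190 to 34972156) stood at 196, 665 and 709 and 55.2, 10.7 and 80.8 CPM (log2 fold change -3.42 ± 0.74, adjusted p = 0.0162; lost without naive 2 or cisplatin saline 4 or 5, where adjusted p reached 0.0597). Hspb1, a small heat shock protein, stood at 9.09, 37.3 and 64.6 and 4.09, 0.518 and 1.28 CPM (log2 fold change -4.24 ± 0.93, adjusted p = 0.0184; lost without naive 3 or cisplatin saline 5 or 6, where adjusted p reached 0.0778). The naive samples were tight for Hspa1b, whereas naive 1 lay far below naive 2 and 3 for Hspa1a and Hspb1, yet above every treated sample. Hsp90aa1, the stress-inducible HSP90, fell from 368, 613 and 489 to 90.5, 124 and 197 CPM (log2 fold change -1.84 ± 0.26, adjusted p = 0.00142). Dnajb1, a co-chaperone of HSP70, went from 264, 789 and 1001 to 186, 137 and 284 CPM, where cisplatin saline 6 overlapped naive 1 (log2 fold change -1.76 ± 0.45, adjusted p = 0.0367; lost without naive 2 or 3 or cisplatin saline 4 or 5, where adjusted p reached 0.154). In the whole list 0 rose and the median was -0.33; 3 fell without naive 2, naive 3 or cisplatin saline 4, 2 without cisplatin saline 5, and 2 with the stress score, which holds these genes, as a covariate. Immediate early genes, which tissue handling can induce, had 3 of 30 lower and a median of -1.31. With the stress score as a covariate that median was 0.17, a shift built in because the score is made from these genes too. Fosb stood at 118, 362 and 359 and 19.3, 11.8 and 63.8 CPM (log2 fold change -3.14 ± 0.76, adjusted p = 0.0286; lost without naive 2 or 3 or cisplatin saline 4 or 5, where adjusted p reached 0.118), and Rhob (log2 fold change -1.33 ± 0.31, adjusted p = 0.0235; lost without naive 2 or 3 or cisplatin saline 4 or 5, where adjusted p reached 0.114) and Ier5 (log2 fold change -1.64 ± 0.39, adjusted p = 0.0261; lost without naive 1 or 2 or cisplatin saline 4 or 5, where adjusted p reached 0.118) were the others. Fos itself ranged from 699 to 5500 CPM over the naive samples and from 142 to 1278 CPM over the treated ones, overlapped and did not pass (log2 fold change -2.39 ± 0.85, adjusted p = 0.141). The 3 calls became 0 without naive 2, cisplatin saline 4 or cisplatin saline 5, 1 without naive 3 and 6 without cisplatin saline 6.

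Among 28 genes known to respond to glucocorticoids, 5 rose and 2 fell, with a median of 0.79. Slc10a6, a transporter of sulfated steroids, had 0, 0 and 0.0321 CPM in naive 1, 2 and 3 and 19.6, 10.6 and 5.42 CPM in cisplatin saline 4, 5 and 6. It held 2 counts over the naive samples and 2671 over the treated ones (ratio of levels 1041, 95% counting interval 288 to 8604; adjusted p = 0.00797). Xdh, which makes uric acid, rose from 0.567, 0.801 and 0.0643 to 73, 34.1 and 34.1 CPM (log2 fold change 6.62 ± 1.12, adjusted p = 0.00417). Klf9, a transcription factor, went from 0.361, 0.784 and 4.16 to 113, 28.4 and 8.29 CPM (log2 fold change 4.82 ± 1.29, adjusted p = 0.048; lost without naive 1 or 2 or cisplatin saline 4 or 5, where adjusted p reached 0.19). Cisplatin saline 4 was the highest sample and 6 the lowest treated one for Slc10a6 and Klf9, and likewise for Lrg1 and Il1r2, the other rises. Nr3c1, the glucocorticoid receptor itself, fell from 205, 227 and 207 to 113, 101 and 115 CPM (log2 fold change -0.96 ± 0.19, adjusted p = 0.00968; lost without cisplatin saline 5, where adjusted p was 0.0553), as did Rgs2 (log2 fold change -1.45 ± 0.36, adjusted p = 0.0317; lost without naive 1 or 2 or cisplatin saline 4, 5 or 6, where adjusted p reached 0.135). The number of rises was 3 without naive 1, naive 2, cisplatin saline 4 or cisplatin saline 5.

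Of 27 antioxidant, metallothionein and iron genes 5 rose and 1 fell, with a median of 0.66. Prdx1, a peroxiredoxin, stood at 212, 199 and 292 CPM in naive and 552, 557 and 565 CPM in treated samples (log2 fold change 1.25 ± 0.21, adjusted p = 0.00354). Fth1, the ferritin heavy chain, went from 1769, 2115 and 1997 to 4076, 3476 and 2737 CPM (log2 fold change 0.81 ± 0.19, adjusted p = 0.0244; lost without naive 1, 2 or 3 or cisplatin saline 4 or 5, where adjusted p reached 0.0961). The superoxide dismutases Sod1 and Sod2 and the peroxiredoxin Prdx5 also rose. Nfe2l2, which encodes the antioxidant transcription factor NRF2, fell from 350.4, 358 and 364 to 215, 203 and 198 CPM, with very tight groups (log2 fold change -0.80 ± 0.12, adjusted p = 0.00251). The rises numbered 1 without naive 1, naive 2 or cisplatin saline 5, where Prdx1 was kept, and 3 without cisplatin saline 4. Of 25 endoplasmic reticulum chaperone and unfolded protein genes 1 was called (4%, against 4.41% of all genes). This was P4hb, protein disulfide isomerase, higher (log2 fold change 1.02 ± 0.23, adjusted p = 0.0203, lost without naive 1 or 2 or cisplatin saline 4 or 5, where adjusted p reached 0.0901).

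Lists tied to DNA damage and mitosis gave no call by edgeR. Of the replication genes 3 were called higher, each losing its call in at least 1 fit that left out 1 sample. Of 24 p53 targets 0 passed (median -0.21; 5 at an unadjusted p under 0.05, 4 called by DESeq2 and 1 by limma-voom). Of 36 genes that repair platinum adducts 0 passed (median 0.18; 3 at an unadjusted p under 0.05, 1 by DESeq2 and 0 by limma-voom). Of 28 mitosis genes 0 passed (median -0.34; 1 at an unadjusted p under 0.05 and 0 by either other tool). Of 28 replication genes 3 were called higher (10.7%, against 2.42% of all genes), with a median of 1.08. Among all genes of 10 CPM or more, 474 of 8572 were called higher. In 16 of the 28 replication genes every treated sample lay above every naive one, a larger share than the 12% of all genes. Rrm1, a subunit of ribonucleotide reductase, went from 15.3, 31.3 and 37.7 to 51.7, 96.3 and 78.4 CPM (log2 fold change 1.42 ± 0.32, adjusted p = 0.0192; lost without naive 1 or 2 or cisplatin saline 5, where adjusted p reached 0.0916). Mcm2, part of the replicative helicase, went from 17.4, 17.3 and 30.7 to 53.4, 111 and 139 CPM (log2 fold change 2.21 ± 0.59, adjusted p = 0.0473; lost without naive 1, 2 or 3 or cisplatin saline 5 or 6, where adjusted p reached 0.174). Gins4 was the remaining rise (log2 fold change 1.06 ± 0.26, adjusted p = 0.0318; lost without naive 1 or 3 or cisplatin saline 4, 5 or 6, where adjusted p reached 0.122). The rises numbered 0 without naive 1 or cisplatin saline 5, 1 without naive 2 or cisplatin saline 6, and 5 without cisplatin saline 4.

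Transcripts of both subunits of the cytosolic ribosome rose. In the small subunit 27 of 33 rose (median 1.09) and in all 33 every treated sample lay above every naive one. In the large subunit 32 of 48 rose (median 0.98), and 44 of the 48 were separated in this way. Rps27a, whose product is made as a fusion with ubiquitin (chromosome 11, 29545846 to 29548109), stood at 85.7, 84.1 and 89.6 CPM in naive and 209, 244 and 226 CPM in treated samples (log2 fold change 1.39 ± 0.18, adjusted p = 0.000988). Rpl38, of the large subunit, stood at 25.4, 25.9 and 31.4 CPM in naive and 102, 147 and 134 CPM in treated samples (log2 fold change 2.22 ± 0.21, adjusted p = 0.000225). Rpl35a, also of the large subunit, stood at 44.2, 45.4 and 51.6 and 178, 221 and 167 CPM (log2 fold change 2.0 ± 0.21, adjusted p = 0.000316). The groups were tight and far apart for each, and cisplatin saline 5 was the highest. As a share of counts, the small subunit genes took 0.368 to 0.371% in naive and 0.75 to 0.876% in treated samples, and the large subunit genes 0.478 to 0.501% and 0.920 to 1.03%. With any 1 sample left out, 20 to 26 small subunit and 22 to 32 large subunit genes rose. With the stress score as a covariate 15 and 13 rose.

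Translation and ribosome assembly followed. Of 40 translation factor genes 13 rose and 0 fell (median 0.70). Eif5a, the hypusine-containing factor that resolves stalled ribosomes, stood at 329, 462 and 659 CPM and rose to 1734, 1887 and 1815 CPM (log2 fold change 1.91 ± 0.33, adjusted p = 0.00471). Eef1g, a subunit of the elongation factor complex, rose from 64.6, 49 and 62.3 to 136, 185 and 187 CPM (log2 fold change 1.53 ± 0.25, adjusted p = 0.00332). Of 30 ribosome biogenesis genes 4 rose (median 0.70), with nucleolin (Ncl) at 122, 140.2 and 152 CPM in naive and 399, 386 and 388 CPM in treated samples (log2 fold change 1.5 ± 0.24, adjusted p = 0.00337). Npm1, which encodes nucleophosmin, went from 139, 139 and 208 to 311, 413 and 443 CPM (log2 fold change 1.26 ± 0.27, adjusted p = 0.0152; lost without naive 1 or 2 or cisplatin saline 5, where adjusted p reached 0.0821). None of these 4 genes overlapped between groups. Of 77 mitochondrial ribosomal protein genes 18 rose (median 0.52), led by Mrpl52, at 41.1, 50.3 and 54.2 and 129.5, 129.5 and 113 CPM (log2 fold change 1.35 ± 0.20, adjusted p = 0.00166). All 3 counts moved when single samples were left out. The translation factors that rose numbered 5 without naive 1, 4 without naive 2, 8 without cisplatin saline 4 and 5 without cisplatin saline 5. The mitochondrial ribosomal genes numbered 5, 5, 9 and 4 without the same samples in turn, and the biogenesis genes 2 without naive 1, naive 2 or cisplatin saline 5. With the stress score as a covariate 3 translation factors, 1 biogenesis gene and 1 mitochondrial ribosomal gene rose.

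Nuclear-encoded subunits of oxidative phosphorylation rose as well. Complex I had 20 of 37 higher (median 0.82), complexes II to IV had 15 of 25 (median 0.96) and the ATP synthase 14 of 18 (median 1.04), with 0 lower in each. Ndufa4, a subunit long assigned to complex I, stood at 53.4, 66.4 and 80.6 CPM in naive and 178, 192 and 170.2 CPM in treated samples (log2 fold change 1.43 ± 0.17, adjusted p = 0.000549). Uqcrb, of complex III, stood at 22.1, 24 and 25.7 and 63.4, 64.8 and 63 CPM (log2 fold change 1.41 ± 0.16, adjusted p = 0.000453). Atp5g1, of the membrane ring of the ATP synthase, stood at 35, 41.5 and 49.2 and 144, 124 and 117 CPM (log2 fold change 1.61 ± 0.29, adjusted p = 0.00602). All 3 had narrow spreads and no overlap. Of 13 mitochondrially encoded genes 1 was called (7.69%, against 4.41% of all genes). This was mt-Nd1, which rose from 1634, 1364 and 1542 to 3627, 3879 and 3949 CPM (log2 fold change 1.33 ± 0.16, adjusted p = 0.000549). The gene mt-Cytb, at 4267, 4365 and 6196 and 7365, 7467 and 8545 CPM, did not pass (log2 fold change 0.66 ± 0.18, adjusted p = 0.0588). The mitochondrial share of counts given above was higher in all 3 treated samples, and its part in these rises was not tested. Complex I rises numbered 11 without naive 2, and ATP synthase rises numbered 9 without naive 1, 7 without naive 2 and 8 without cisplatin saline 5. With the stress score as a covariate, the 3 groups held 6, 10 and 6 rises.

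In glycolysis 5 of 26 genes rose (median 0.21). Ldha, lactate dehydrogenase A, stood at 286, 337 and 415 CPM and rose to 1035, 1210 and 1001 CPM (log2 fold change 1.65 ± 0.32, adjusted p = 0.00922). Gapdh (log2 fold change 1.38 ± 0.29, adjusted p = 0.0144; lost without naive 1 or 2 or cisplatin saline 5, where adjusted p reached 0.0703) and the pyruvate kinase gene Pkm (log2 fold change 1.33 ± 0.28, adjusted p = 0.0155; lost without naive 1 or 2 or cisplatin saline 5, where adjusted p reached 0.0715) were also called. Without naive 1, naive 2 or cisplatin saline 5, 1 of the 5 rises remained, and with the stress score as a covariate 0 glycolysis genes were called higher by edgeR. Of 36 proteasome subunits 13 rose and 1 fell (median 0.75), with 29 having every treated sample above every naive one. Psmb3, of the catalytic core, rose from 83.2, 85.3 and 115 to 288, 263 and 226 CPM (log2 fold change 1.45 ± 0.22, adjusted p = 0.00217). Psmb9, which replaces a standard subunit in the immunoproteasome, fell from 81.4, 87.7 and 104 to 37, 53.4 and 51.8 CPM (log2 fold change -0.94 ± 0.21, adjusted p = 0.0208; lost without naive 2 or 3 or cisplatin saline 4 or 5, where adjusted p reached 0.0963). Proteasome rises numbered 4 without naive 1, 6 without naive 2 and 5 without cisplatin saline 5, and 1 with the stress score as a covariate. In the cytoskeleton list 6 of 39 rose and 1 fell (median 0.32). Cfl1, the actin-severing protein cofilin, rose from 551, 715 and 976 to 1526, 1434 and 1450 CPM (log2 fold change 0.98 ± 0.19, adjusted p = 0.00845). Beta-actin (Actb) went from 6416, 8051 and 10260 to 13100, 12350 and 14550 CPM (log2 fold change 0.69 ± 0.18, adjusted p = 0.0452; lost without naive 1 or 2 or cisplatin saline 4, 5 or 6, where adjusted p reached 0.169). The rises in this list numbered 10 without naive 3, 1 without cisplatin saline 5, 2 without naive 1 and 3 without each of the other samples.

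Lysosomal genes moved both ways. Of 33 hydrolase and membrane genes 5 fell and 2 rose (median -0.42). Hexa, the alpha subunit of hexosaminidase (chromosome 9, 59539540 to 59565109), stood at 1401, 1645 and 1940 CPM in naive and 430.4, 393 and 481 CPM in treated samples (log2 fold change -1.93 ± 0.18, adjusted p = 0.000225). Arsb, arylsulfatase B, fell from 98.2, 106 and 91.4 to 38.6, 29.3 and 46.7 CPM (log2 fold change -1.37 ± 0.22, adjusted p = 0.00345). Scarb2, which carries glucocerebrosidase to lysosomes, fell from 269, 257 and 304 to 175, 148 and 98.9 CPM (log2 fold change -0.98 ± 0.19, adjusted p = 0.00837). No overlap was seen. Against them, Cd63 and Gusb, beta-glucuronidase, at 400.5, 451 and 522 and 828, 782 and 762 CPM (log2 fold change 0.79 ± 0.15, adjusted p = 0.00814), were the rises. Of 17 cathepsins and cystatins 4 fell and 3 rose. Ctsd, the main aspartic protease of lysosomes, fell from 5453, 5463 and 5771 to 2907, 1416 and 1555 CPM (log2 fold change -1.5 ± 0.27, adjusted p = 0.00581). Ctsc, which activates serine proteases of granules, went from 1765, 1871 and 1773 to 3493, 5158 and 3640 CPM (log2 fold change 1.18 ± 0.28, adjusted p = 0.0268; lost without naive 1, 2 or 3 or cisplatin saline 5, where adjusted p reached 0.122). Cisplatin saline 4 kept the highest Ctsd level of the treated samples and the lowest Ctsc level. Of 18 proton pump subunits 1 was called (5.56%, against 4.41% of all genes). This was Atp6v0b, lower (log2 fold change -0.53 ± 0.14, adjusted p = 0.0453), which lost its call when any 1 sample was left out (adjusted p up to 0.134). The hydrolase falls numbered 3 without naive 2, naive 3, cisplatin saline 5 or cisplatin saline 6, and the cathepsin and cystatin falls 2 without naive 2, naive 3 or cisplatin saline 5. The cathepsin and cystatin rises numbered 0 without naive 1, naive 2 or cisplatin saline 5 and 1 without naive 3 or cisplatin saline 4.

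**Figure D3:**
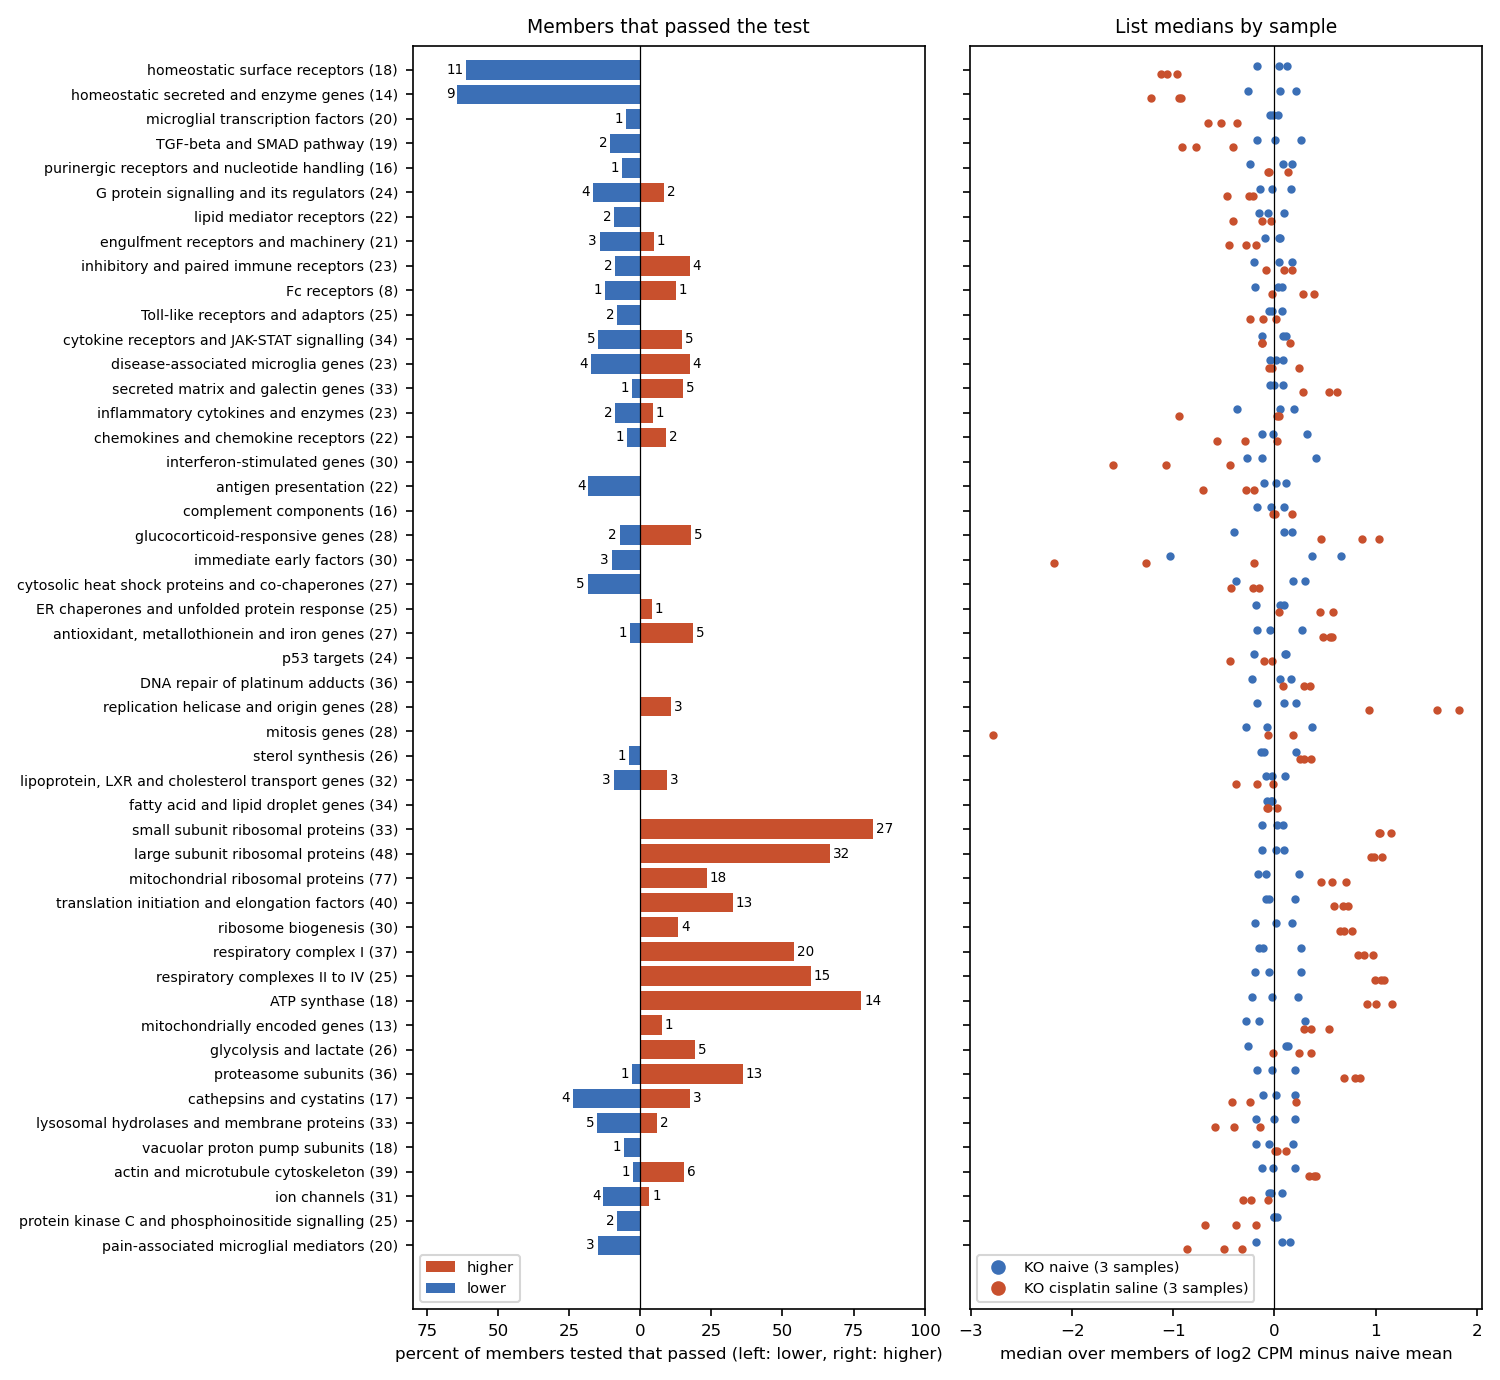
For each of 49 gene lists, the percent of tested members called higher and lower (bars from 0), and beside it the median over members of log2 CPM in each of the 6 samples relative to the naive mean. The bars of the cytosolic ribosomal, respiratory and ATP synthase lists extend furthest to the higher side and those of the homeostatic lists to the lower side. In these lists the medians of the 3 treated samples lie on the same side of the naive ones. Medians of single samples went further in other lists, to 1.82 for replication genes in cisplatin saline 5 and -2.78 for mitosis genes in cisplatin saline 4. The mitosis medians were 0.18 and -0.07 in cisplatin saline 5 and 6. For immediate early genes the median was -2.18 in cisplatin saline 5.

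Some of the largest changes fell outside the lists; of the 30 largest, 12 were in none. Ms4a6c, a membrane-spanning protein of myeloid cells, stood at 34.3, 24.9 and 31.2 CPM in naive and 416, 383 and 160.5 CPM in treated samples (log2 fold change 3.41 ± 0.39, adjusted p = 0.000515). Snord13, a small nucleolar RNA, rose from 2.53, 4.79 and 4.16 to 19, 39.3 and 65.9 CPM (log2 fold change 3.44 ± 0.53, adjusted p = 0.00226). Socs2, a feedback inhibitor of growth hormone signalling, went from 0.688, 0.701 and 2.33 to 41.3, 18.8 and 8.62 CPM (log2 fold change 4.2 ± 1.04, adjusted p = 0.0323; lost without naive 1 or 2 or cisplatin saline 4 or 5, where adjusted p reached 0.141). Cisplatin saline 6 was the lowest treated sample for Ms4a6c and Socs2 and the highest for Snord13. Zmat1, a zinc finger protein, fell from 21.7, 19.4 and 13.5 to 0.568, 1.57 and 1.03 CPM (log2 fold change -4.11 ± 0.62, adjusted p = 0.00221). Upk1b, a tetraspanin of the uroplakin family, fell from 63.9, 96.8 and 71.2 to 11, 5.94 and 9.04 CPM (log2 fold change -3.16 ± 0.37, adjusted p = 0.000549). St8sia6, a sialyltransferase, fell from 71.3, 60.9 and 30 to 5.83, 4.28 and 5.44 CPM (log2 fold change -3.38 ± 0.56, adjusted p = 0.00375). These 3 falls left every treated sample far below the naive ones. Gp9, known from the platelet receptor for von Willebrand factor, fell from 48, 58 and 73.3 to 8.72, 0.629 and 8.32 CPM, with cisplatin saline 5 the lowest (log2 fold change -3.34 ± 0.72, adjusted p = 0.0167). Il7r, the interleukin 7 receptor, went from 69.1, 66.5 and 41.6 to 2.17, 6.05 and 14.1 CPM (log2 fold change -2.99 ± 0.77, adjusted p = 0.039; lost without naive 1, 2 or 3 or cisplatin saline 4 or 5, where adjusted p reached 0.147). The remaining large falls were Usp11 (log2 fold change -3.42 ± 0.71, adjusted p = 0.0128; lost without cisplatin saline 5, where adjusted p was 0.0701), Usp35 (log2 fold change -3.28 ± 0.72, adjusted p = 0.0179; lost without naive 1 or cisplatin saline 4 or 5, where adjusted p reached 0.0805), Tmem204 (log2 fold change -3.12 ± 0.56, adjusted p = 0.00581) and Lrba (log2 fold change -3.06 ± 0.60, adjusted p = 0.00944). Among abundant genes outside the lists, Itm2b, a membrane protein linked to familial dementias, fell from 5900, 6526 and 7834 to 3400, 2435 and 2249 CPM (log2 fold change -1.32 ± 0.24, adjusted p = 0.00569).

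**Figure D4:**
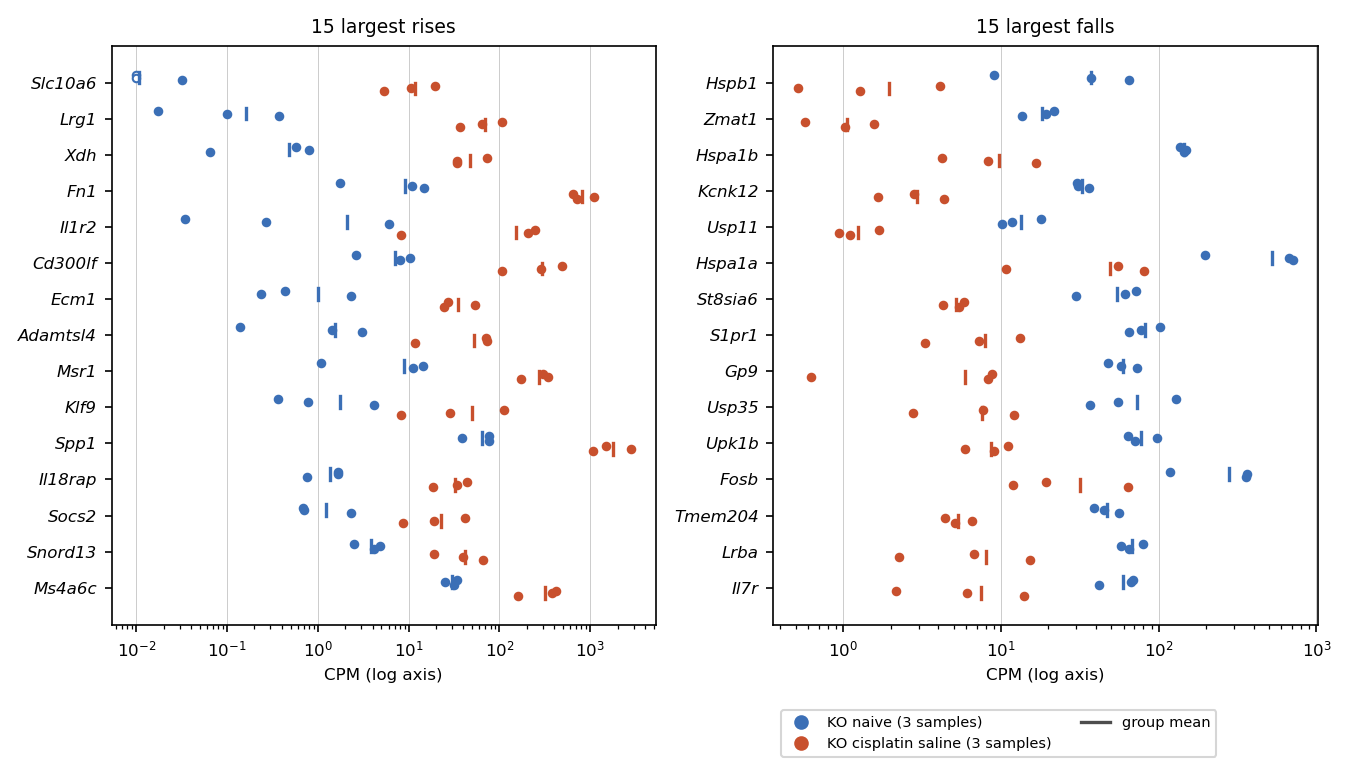
CPM (log axis) of the 15 largest rises and 15 largest falls named by the rule, 1 point per sample, naive 1 to 3 and cisplatin saline 4 to 6; open points at 0.01 CPM stand for a count of 0. Rises such as Lrg1 and Slc10a6 start near 0 in all naive samples, while falls such as Upk1b and S1pr1 start from levels well above 10 CPM.

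Markers of other cells were examined for what the sort could hold. The 8 microglial markers together stood at 29140 to 39150 CPM in naive and 14630 to 16330 CPM in treated samples, and 7 of them were called lower. The 12 monocyte markers together went from 34.95 to 51.39 CPM in naive to 810.9 to 1276 CPM in treated samples, mainly through Fn1, the only member called. Of the other monocyte markers, Chil3, a secreted lectin, stood at 0.103, 4.89 and 0.225 CPM and 116, 106 and 76.9 CPM and did not pass (log2 fold change 5.84 ± 2.02, adjusted p = 0.133). Ccr2, the receptor that brings monocytes into tissue, stood at 1.89, 1.97 and 0.305 CPM in naive and 0.227, 4.88 and 6.74 CPM in treated samples, and Ly6c2 stood at 0, 0.0167 and 0.0161 and 6.49, 1.11 and 0.0752 CPM. Both remained low in every sample, and the part of monocytes in the rises of Fn1, Msr1, Cd300lf and the like was not tested. Border macrophage markers summed to 9.18 to 10.4 CPM in naive and 27.8 to 46.1 CPM in treated samples, with Lyve1 and Cd209f at 0 in all 6. Neutrophil markers summed to 702 to 795 and 255 to 298 CPM, nearly all of it Csf3r, which microglia express, while S100a9, Ly6g and Retnlg were at 0 in all 6. T and NK cell markers summed to 3.08 to 3.61 and 1.18 to 2.47 CPM with Cd3e, Trbc2 and Nkg7 at 0. B cell markers summed to 826 to 1549 and 305 to 681 CPM, mostly Ighm, the IgM heavy chain, which fell from 749.8, 896 and 1451 to 236, 284 and 605 CPM (log2 fold change -1.46 ± 0.34, adjusted p = 0.0259; lost without naive 2 or 3 or cisplatin saline 4 or 5, where adjusted p reached 0.12), with Ms4a1 and Blk at 0. Oligodendrocyte markers summed to 468 to 799 and 227 to 344 CPM, with myelin basic protein (Mbp) lower (log2 fold change -1.66 ± 0.40, adjusted p = 0.029; lost without naive 1 or 2 or cisplatin saline 4, 5 or 6, where adjusted p reached 0.115), astrocyte markers to 248 to 368 and 146 to 172 CPM, endothelial markers to 20.3 to 53.6 and 2.01 to 12.7 CPM and neuronal markers to 5.98 to 7.84 and 1.09 to 4.86 CPM. Each of these sums from T and NK cells to neurons was lower in the treated samples. Oligodendrocyte precursor markers (0.0321 to 5.89 and 1.05 to 8.47 CPM) overlapped, and so did erythroid markers (0.467 to 1.57 and 0 to 0.539 CPM).

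**Figure D5:**
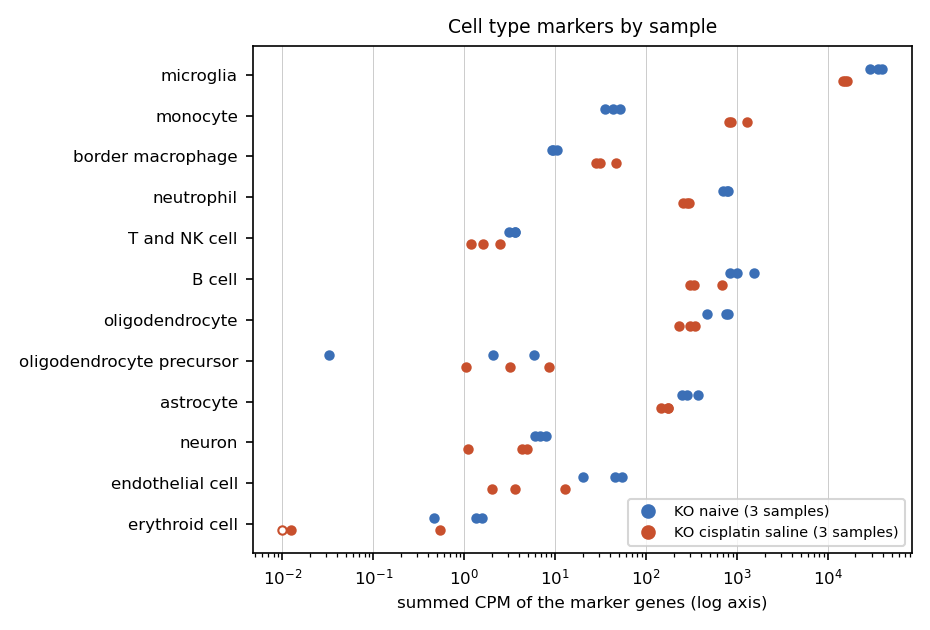
Summed CPM (log axis) of 12 cell type marker lists in each of the 6 samples. The monocyte and border macrophage sums are higher in all 3 treated samples, and the microglial, neutrophil, B cell, oligodendrocyte, astrocyte and endothelial sums are lower.

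Whether these changes differ from those in WT mice was tested as the difference between the 2 cisplatin effects. Of 20461 genes 0 passed (0%) by edgeR's quasi-likelihood test, with 1561 at an unadjusted p under 0.05, 187 passing by DESeq2 and 1 by limma-voom. Nothing listed here is therefore called particular to ABC-imKO. The genes named with the smallest p of this difference were Olfml3, at -1.66 in ABC-imKO and 0.13 in WT (difference -1.78 ± 0.27, adjusted p = 0.16), and Hspa1b, at -3.89 and 1.31 (difference -5.2 ± 0.82, adjusted p = 0.16). Hspa1b stood at 23.2, 38.6 and 108.7 CPM in WT naive samples and at 67.4, 175 and 180.1 CPM in WT cisplatin saline samples, so the ABC-imKO naive samples lay above the WT naive ones and the 2 fold changes had opposite signs. For Trpv4 the effects were 2.36 and -1.40 (difference 3.77 ± 0.78, adjusted p = 0.374), for Il15ra 2.39 and 0.73 (1.66 ± 0.34, adjusted p = 0.374) and for Fcrls -0.94 and 0.17 (-1.12 ± 0.24, adjusted p = 0.412). For Apoe they were 1.68 and 0.39 (adjusted p of the difference 0.608). The median effects in WT were -0.84 for the homeostatic surface receptors (6 called), -0.67 for the secreted and enzyme genes (3 called), 1.11 for the small subunit (28 called) and 1.02 for the large subunit (34 called). In the ABC-imKO mice given AIBP after cisplatin, Lrg1 stood at 9.02, 3.94 and 10.7 CPM and Apoe at 1541, 1007 and 1389 CPM in samples 7, 8 and 9, all below the saline samples. For Lrg1 they lay above the naive samples and for Apoe below them.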

How the data were processed

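Microglia of the lumbar cord were sorted by flow cytometry into lysis buffer, and polyadenylated RNA was primed with oligo(dT), amplified by PCR and made into Nextera XT libraries, per the labels' protocols. Sequencing was paired-end, 50 bases a read, on a NovaSeq. The submitters' processing notes name STAR 2.6.0a, DESeq2, bcl2fastq, MultiQC 1.7 and FastQC 0.11.17 and the build GRCm38. For the counter and the use of strand, nothing is given in the sources used here, so overlapping and antisense genes may share reads. The authors deposited a table of raw read counts for 53715 genes and 102 runs, which was used for every value. Their normalized table was not used.

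The 6 runs of each sample were summed. Groups were compared with edgeR 4.0.16 in R 4.3.3: filterByExpr by group (20461 genes), TMM factors (0.885 to 1.11), and glmQLFit and glmQLFTest, two-sided, with 6 group means over all 17 samples (biological coefficient of variation 0.922, 11 residual degrees of freedom). Genes passed at a Benjamini-Hochberg adjusted p under 0.05 over all genes tested. DESeq2 1.42.0, limma 3.58.1 (voom), other filters and scalings, technical replicates as libraries, and fits without each sample were the alternatives. The scripts were tested on simulated data. PCR reads carry no molecular identifiers, so counting intervals cover counting error only, and a level of 0 over a group is bounded at 3 counts.

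Named genes followed a rule: Abca1, Abcg1 and Cx3cr1; the 15 largest rises and 15 largest falls among called genes that reach a mean of 10 CPM in either group, leaving out gene models, clones and pseudogenes; the 15 called genes of highest mean CPM; and in each of 49 functional lists up to 6 members with the smallest p. Markers of 12 cell types are given by range. Called list members outside the rule, such as Golm1, Cd9 or Glb1, were named after their values were seen. A few genes that the rule names are not reported here. The members and lists were chosen with earlier results of these data known. Symbols and positions come from GENCODE mouse release M21 (53620 IDs named, 95 not), and upstream sequences from RefSeq. Samples of a group differed far beyond sampling noise, so none was counted as a repeat of another.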

Additional observations from a re-analysis of the deposited data

How the results depend on the processing

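The 903 calls became 2193 by DESeq2, 584 with only the 6 samples compared, 574 with the 9 ABC-imKO samples, 204 in a test against a 1.5-fold change and 174 with the stress score as a covariate. They numbered 366 to 788 when 1 sample was left out, and 526 to 671 when 1 technical replicate number was left out. With upper-quartile scaling, limma-voom, no filter or a stricter filter the counts were 928, 1234, 859 and 1336. The share of calls that were higher was 54.9% in the comparison reported, 58.0% with upper-quartile scaling, 49.1% by DESeq2, 43.8% without naive 1, 63.6% without naive 3, 64.8% without technical replicate 1 and 65.5% with the stress score. Every gene called in the comparison and tested under an alternative kept its direction there. Why the counts moved was not tested, beyond the smaller sample and gene numbers that some fits contain. Of 191 called genes named by the rule or in the lists, 101 passed in each of the 6 fits that left out 1 sample and 90 lost the call in at least 1. Those 101 had adjusted p up to 0.0167, and 82 of the 90 were lost without cisplatin saline 5 and 72 without naive 2.

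No biological number pairs the groups, since the labels number the naive samples 1 to 3 and the treated ones 4 to 6. Technical replicate numbers run over all samples, and libraries of the same number in different samples did not deviate together (median r -0.00665, against 0.00221 for different numbers). When each technical replicate was its own library and the number entered as a replicate block, 2589 genes were called by edgeR, and 2356 by limma-voom with the sample as a random effect (correlation within a sample 0.0886). The edgeR block fit treats the 3 libraries of a sample as independent.

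The difference between ABC-imKO and WT effects, 0 genes in the comparison reported, was 187 genes by DESeq2, 1 by limma-voom, 6 without a filter, 0 with only the 12 samples concerned and 0 to 6 when 1 sample was left out, with 6 without ABC-imKO cisplatin saline 6 and 2 without WT naive 3. What depth limits was not tested; samples held 54.7 M counts or more in this comparison.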
